A study of Mus musculus with 6 samples.

Results

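The replication-dependent histone genes were taken as all genes of the count table whose symbol begins with Hist1h, Hist2h, Hist3h or Hist4h. There were 70 such genes among the 39017 genes of the table. By the letters that follow in the symbol, 6 are H1 genes, 20 H2a, 19 H2b, 12 H3 and 13 H4. By cluster, 56 belong to Hist1 on mouse chromosome 13, 10 to Hist2 on chromosome 3, 3 to Hist3 on chromosome 11 and 1, Hist4h4, is alone on chromosome 6. In GENCODE release M21, which uses the same GRCm38 (mm10) build as the authors, 3 of the 70 are pseudogenes (Hist1h2aj, Hist1h2al and Hist3h2bb-ps).

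The samples were induced germinal center B cells (iGBs), which are splenic B cells of C57BL6/J mice activated in culture with CD40L, BAFF and IL-4. The cells had been grown for 3.5 days on 40LB cells, a fibroblast line engineered to present CD40L and BAFF, and the feeders were removed before RNA was purified. Control iGBs carried Cg1-cre alone and Prmt1-null iGBs carried Cg1-cre with both Prmt1 alleles floxed (Prmt1f/f), with 2 females and 1 male in each group of 3 mice. Cg1-cre is turned on in activated B cells, so that both groups carry the recombinase and deletion takes place during the culture. The comparison asked how the loss of Prmt1, the arginine methyltransferase that the floxed allele removes, bears on the histone mRNAs. Libraries had been made from total RNA after depletion of ribosomal RNA, without selection of poly(A) tails.

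Replication-dependent histones supply the nucleosomes that are laid down on new DNA, and their mRNAs rise as cells enter S phase and are destroyed when replication ends. H2A, H2B, H3 and H4 form the core around which DNA is wound, and the linker histone H1 binds where DNA enters and leaves it. These mRNAs do not end in a poly(A) tail. They end shortly after a stem-loop that is bound by stem-loop binding protein (Slbp) and cut with the help of the U7 small nuclear RNA, so a library made from poly(A) RNA would miss most of them. Germinal center B cells are among the fastest dividing cells of the body.

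The stem-loop is the sequence that defines these mRNAs, so the forms found in the different classes are shown here. A stem of 6 paired bases and a loop of 4 bases was found after the stop codon in the models of 46 of the 70 genes. The other models end before it or carry none in GENCODE. Each line gives 5 bases on either side in lower case and the stem-loop itself in capitals, from the transcripts of GENCODE M21.
Hist1h2bm (H2b): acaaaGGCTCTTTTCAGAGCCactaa
Hist1h1c (H1): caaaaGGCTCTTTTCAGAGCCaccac
Hist1h3e (H3): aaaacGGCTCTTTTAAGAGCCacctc
Hist1h3g (H3): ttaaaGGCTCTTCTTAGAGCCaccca
Hist1h4d (H4): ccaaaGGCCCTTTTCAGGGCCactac
Hist2h4 (H4): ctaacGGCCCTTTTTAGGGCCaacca
Counted from the 5′ end of the stem-loop, base 4 was C in all 12 H4 genes with a stem-loop and T in all 34 genes of the other classes. The H2a, H2b and H1 genes mostly share 1 form, shown for Hist1h2bm and Hist1h1c, so a gene's class can be read from this element only for H4.

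Prmt1 itself checked the labels. It stood at 71.5, 70.8 and 87.2 CPM in the Control and at 31.5, 26.7 and 26.6 CPM in the Prmt1-null libraries, where CPM are counts scaled to library size and, by edgeR's TMM factors, to library composition. Its log2 fold change was -1.44 ± 0.10 (SE, adjusted p = 1.11e-05, edgeR's quasi-likelihood test). The libraries held 45343250 to 62774232 counts each, of which the histone genes took between 0.670% and 0.937%. Of the B cell markers, the transcription factor gene Pax5 stood at 185.4 to 212 CPM over the 6 libraries and Cd79b, of the B cell receptor complex, at 485 to 635 CPM. Markers of the feeder fibroblasts summed to 27.3 to 31.7 CPM in Control and 29.7 to 38.8 CPM in Prmt1-null iGBs, with Lum at 0 in every library. Among them, Col1a1 (5.98 to 7.14 CPM in Control, 7.75 to 9.85 in Prmt1-null) and Sparc (1.18 to 1.65 and 1.75 to 2.98 CPM) were higher without overlap. The other tested feeder markers overlapped between groups, and 0 of the 7 tested were called (edgeR). The 4 T cell markers summed to at most 2.57 CPM. Plasma cell markers (Xbp1 giving most of the sum) were at 356 to 378 CPM in Control and 412 to 477 CPM in Prmt1-null iGBs, without overlap, and 0 of the 3 tested plasma cell markers were called (edgeR, adjusted p of 0.0571 for Xbp1). The part of these markers in the histone values was not tested.

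Histone genes as a group stood slightly lower in Prmt1-null than in Control iGBs, and among the 5 classes only the H2b sum and the H2b share were lower in every Prmt1-null library than in every Control library. The 69 genes that passed the filter on low counts had a median log2 fold change of -0.20, against 0.00 for all 18268 genes tested, and 65 of the 69 were below 0 where 50.1% of all genes tested were. To be called, a gene needed a mean normalized count over 100 and an adjusted p under 0.05. By this rule 5 histone genes fell (Hist1h2br, Hist1h2bn, Hist1h2bm, Hist1h2an and Hist1h3h), while 0.602% of all genes tested were called lower. None rose, against 0.58% of all genes called higher, and 0 of the 69 were above 0 even at an unadjusted p under 0.05 (edgeR), and 0 were called higher by DESeq2 or limma-voom. The count of 5 was small and depended on single libraries, being 0 without Prmt1-null replicate 1 or 2, 1 without Control replicate 2 or Prmt1-null replicate 3, and 2 without Control replicate 3. DESeq2 called 18, and over all genes it called 746 in either direction, against 216 by edgeR. At an unadjusted p under 0.05, 30 of the 69 were lower, where 7% of all genes were. All 3 Prmt1-null libraries lay below all 3 Control libraries for 22 of the 69 genes, against 9.92% of all genes, and above for 0, against 9.95%. These genes lie together, share sequence and are expressed together, so the counts over them are not counts of independent observations. Bulk RNA cannot tell fewer cells in S phase from less histone mRNA per cell.

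Summed over all 70 genes, the level was 7389, 7706 and 9397 CPM in Control and 6803, 6936 and 7742 CPM in Prmt1-null iGBs. The mean was 8164 ± 1080 CPM (SD, n = 3) in Control and 7160 ± 508 CPM (SD, n = 3) in Prmt1-null iGBs, a difference of -12.3%. The groups overlapped, because Prmt1-null replicate 3 lay above the 2 lower Control libraries, and the difference was within the spread of the Control libraries. Control replicate 3 stood apart at the top of its group. It held the highest value of the 6 libraries for 56 of the 69 tested genes. Without this library the median log2 fold change of the 69 genes was -0.07, 48 of them were below 0, and the summed level differed by a log2 ratio of -0.08 in place of -0.19. The S phase genes named further on were not at their highest in Control replicate 3, and the cause of its histone level was not tested.

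**Figure D1:**
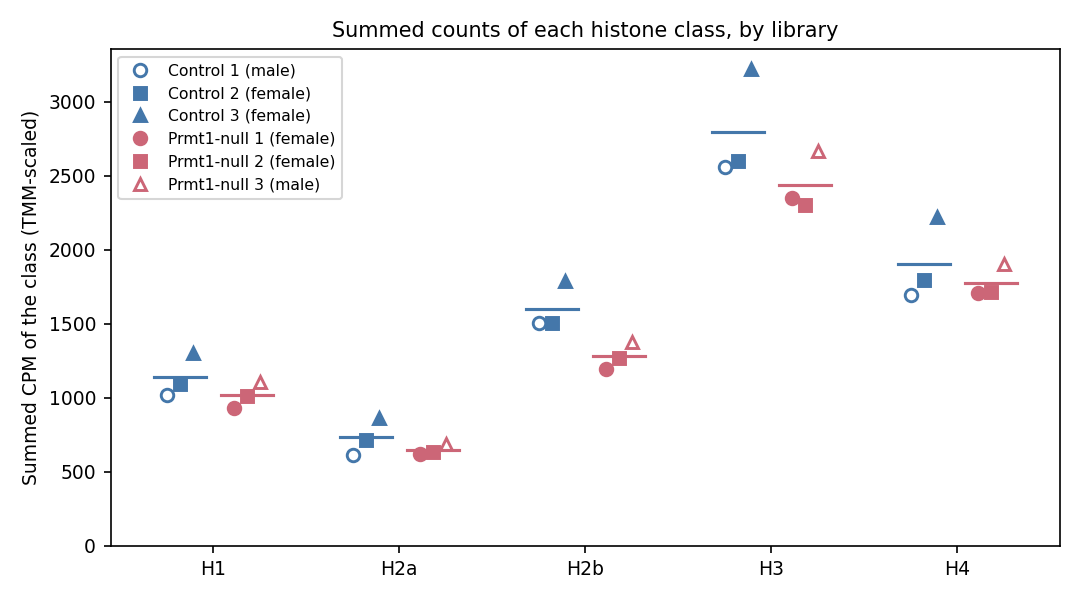
Summed TMM-scaled counts of the genes of each class (vertical axis, CPM, from 0), 1 symbol per library, open symbols for males, with a bar at each group mean. The 3 Prmt1-null libraries sit between 1197 and 1377 CPM for H2b, all below the Control libraries at 1502 to 1790 CPM, and the groups overlap for H1, H2a, H3 and H4.

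H2b, which forms a dimer with H2A on each side of the nucleosome, had the lowest median of the classes. The summed H2b level was 1502, 1502 and 1790 CPM in Control and 1197, 1271 and 1377 CPM in Prmt1-null iGBs. That is a mean of 1598 ± 166 CPM (SD, n = 3) against 1282 ± 90.5 CPM (SD, n = 3), a difference of -19.8%, with no overlap. All 19 H2b genes had a log2 fold change below 0, with a median of -0.34, and 3 of them fell (Hist1h2br, Hist1h2bn and Hist1h2bm). Of the 19, 15 were lower at an unadjusted p under 0.05 (edgeR), where 7% of all genes tested were. For 13 of the 19 the groups did not overlap, against 9.92% of all genes that were lower without overlap. Leaving out Control replicate 3 gave a median of -0.27 and again 13 of 19 genes lower without overlap, where 16.5% of all genes tested were lower without overlap.

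Hist1h2br (ENSMUSG00000069303) lies at chr13:21833743-21837530 on the plus strand. It stood at 173, 157 and 178 CPM in the Control libraries and at 124, 131 and 134 CPM in the Prmt1-null libraries. Every Prmt1-null library was below every Control library, and the gene fell with a log2 fold change of -0.39 ± 0.06 (SE, adjusted p = 0.011, edgeR). Its model runs 1803 bases past the stop codon, and 73.0% of its 50-base windows also occur at 1 other place in the annotated exons, as do 80.3% of those of the neighboring Hist1h2bq. Reads of such copies cannot be fully separated, but the sum of both genes, 202 ± 11.6 CPM (SD, n = 3) in Control and 157 ± 9.40 CPM (SD, n = 3) in Prmt1-null iGBs, did not overlap either.

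Hist1h2bn (ENSMUSG00000095217), a single exon of 381 bases at chr13:21754123-21754503, stood at 154, 169.0 and 176.5 CPM in Control and at 121, 133 and 142 CPM in Prmt1-null iGBs. The groups did not overlap, and the gene fell with a log2 fold change of -0.34 ± 0.07 (SE, adjusted p = 0.0399, edgeR). Windows found at 2 or more other places made up 72.3% of its model. Hist1h2bm (ENSMUSG00000096807), at chr13:21722044-21722567, fell from 39.1, 37.3 and 41.5 CPM to 28.9, 30.02 and 32.4 CPM, a log2 fold change of -0.37 ± 0.08 (SE, adjusted p = 0.0498, edgeR). This last call stood at the edge of the threshold and was lost when chromosome Y genes were kept in the fit (adjusted p = 0.0634, edgeR) and when any 1 of the 6 libraries was left out (adjusted p of 0.0773 to 0.218, edgeR).

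Of the H2b genes that were not called, Hist1h2bl, Hist1h2bh and Hist1h2bc had the smallest p-values of all uncalled histone genes. Hist1h2bl was at 36.5, 36.7 and 41.9 CPM in Control and 27.9, 28.2 and 31.6 CPM in Prmt1-null iGBs (adjusted p = 0.0529, edgeR). Hist1h2bh stood at 59.9 to 70.0 CPM in Prmt1-null against 73.2 to 85.9 CPM in Control iGBs, and Hist1h2bc at 88.5 to 108 against 118 to 132 CPM. None of the 3 overlapped between groups, but the adjusted p missed the threshold. The H2b gene with the most reads, Hist1h2bg, stood at 269, 258 and 300.5 CPM in Control and 229, 224 and 239 CPM in Prmt1-null iGBs, again without overlap (log2 fold change -0.26 ± 0.07, SE, adjusted p = 0.088, edgeR). Nearest to 0 in the class was Hist2h2be, 1 of the H2b genes that overlapped between groups. It is known for a polyadenylated form and stood at 9.01 to 10.3 CPM in Control and 8.68 to 10.6 CPM in Prmt1-null iGBs, a log2 fold change of 0.00 with a 95% interval from -0.28 to 0.27.

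Hist2h2bb had the widest SD in CPM of the H2b genes, at 119, 133 and 255 CPM in Control and 97.0, 125 and 166 CPM in Prmt1-null iGBs. Its high value in Control replicate 3 sets its mean, and the groups overlapped. The identifier that the table gives it belongs to the long noncoding RNA Gm42743 in GENCODE M21, whose model spans the H2b gene, so which transcript was counted is uncertain.

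**Figure D2:**
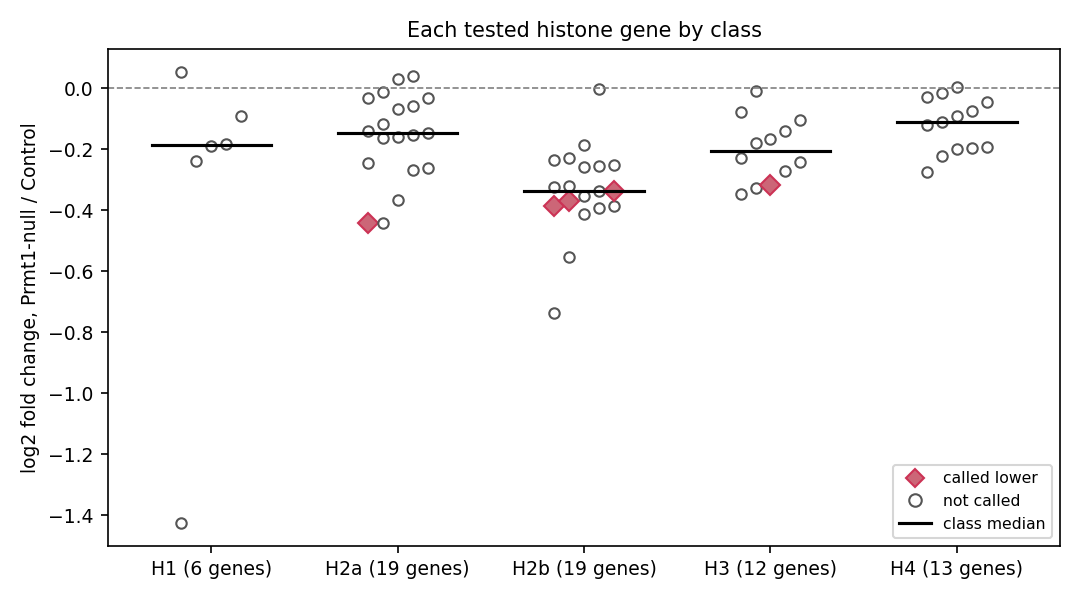
Log2 fold change (Prmt1-null over Control, vertical axis) of each of the 69 tested genes, by class, with a bar at the class median and filled diamonds for the 5 genes called lower. All 19 H2b genes lie below 0, with a median of -0.34. The H1 gene at -1.42 is Hist1h1t, with a mean normalized count of 17.8.

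H2a genes, partners of H2B in the dimer, overlapped between groups as a class. Their summed level was 613.5, 716 and 865 CPM in Control and 616, 635 and 689 CPM in Prmt1-null iGBs, and the median log2 fold change of the 19 tested genes was -0.14. This median was -0.02 without Control replicate 3, with 11 of the 19 below 0, and -0.25 without Control replicate 1. Hist1h2an (ENSMUSG00000069309, chr13:21786826-21787218, minus strand) was the only H2a gene called lower in the edgeR fit as reported. It stood at 28.1, 30.8 and 33.4 CPM in Control and at 22.5, 23.1 and 22.4 CPM in Prmt1-null iGBs (log2 fold change -0.44 ± 0.09, SE, adjusted p = 0.0391, edgeR). However, 80.5% of its windows occur at 2 or more other places, and reads that aligned to more than 2 locations had not been counted. The pseudogene Hist1h2aj had the same log2 fold change at lower counts, 11.3, 12.5 and 11.5 CPM against 8.20, 8.40 and 9.44 CPM (adjusted p = 0.103, edgeR). Hist1h2ap was also lower without overlap, at a log2 fold change of -0.37 (adjusted p = 0.0933, edgeR). DESeq2 called both Hist1h2aj and Hist1h2ap lower.

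The H2a genes with the most reads were not called. Hist2h2aa2 was at 167 to 228 CPM in Control and 162 to 178.5 CPM in Prmt1-null iGBs, Hist1h2ak at 102 to 164 against 115 to 136 CPM, and Hist1h2ao at 68.2 to 104 against 64.0 to 72.4 CPM, and each pair of groups overlapped. At the top of the class, Hist1h2ah had a log2 fold change of 0.04 with a 95% interval from -0.59 to 0.67. Hist2h2aa2 and its near-identical copy Hist2h2aa1 differed widely in counts (means of 182 and 10.2 CPM). These symbols are exchanged between the table and GENCODE M21, and the sum of the pair, 204 ± 33.7 CPM (SD, n = 3) in Control and 181 ± 8.25 CPM (SD, n = 3) in Prmt1-null iGBs, overlapped between groups. The testis gene Hist1h2aa had counts in 1 library only, where it reached 0.190 CPM, and was not tested.

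H3 genes took the most reads of any class. Their sum was 2560, 2601 and 3224 CPM in Control and 2348, 2300 and 2664 CPM in Prmt1-null iGBs and overlapped, with a median log2 fold change of -0.20 and all 12 genes below 0. Without Control replicate 3 the median was -0.08, with 9 of the 12 below 0. Hist1h3h (ENSMUSG00000069312, chr13:21717659-21718069) fell from 86.2, 94.4 and 104 CPM to 73.9, 74.2 and 79.8 CPM, without overlap (log2 fold change -0.32 ± 0.07, SE, adjusted p = 0.0485, edgeR). Windows at 2 or more other places made up 90.1% of its model, the highest share of any histone gene here. The call for Hist1h3h was lost with sex as a covariate (adjusted p = 0.0542, edgeR) and with limma-voom (adjusted p = 0.0515). Leaving out any 1 library other than Control replicate 1 ended the calls of Hist1h3h, Hist1h2bn and Hist1h2an (adjusted p of 0.06 to 0.234, edgeR). Hist1h3g, the lowest of the class, was at 189, 188 and 243 CPM against 161, 148 and 179 CPM, and Hist1h3i at 342, 325 and 415 CPM against 271, 287 and 305 CPM. Both were free of overlap but not called (adjusted p of 0.109 and 0.089, edgeR). Hist1h3d had a log2 fold change of -0.01 with a 95% interval from -0.18 to 0.16. Hist1h3e, with the most reads of the class, had one of -0.10 and Hist2h3b one of -0.18, with overlap between groups in both.

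H4, which pairs with H3 to form the center of the core, had the median nearest to 0 over all libraries and tested genes (-0.11). Among genes with at most 50% of their windows at other places it was -0.19, and H2a was nearest to 0 (-0.06). Of the 13 H4 genes, 0 were called in either direction (edgeR). At an unadjusted p under 0.05 (edgeR), 3 of the 13 were lower, where 7% of all genes tested were, and 0 higher. The summed H4 level was 1696, 1794 and 2218 CPM in Control and 1709, 1716 and 1902 CPM in Prmt1-null iGBs, so that the groups overlapped widely. Without Control replicate 3 the median of the class was 0.07, and that of H2a (-0.02) was nearest to 0. Hist1h4d, the single histone gene with the most reads, stood at 449, 478 and 564 CPM in Control and 449, 472 and 541 CPM in Prmt1-null iGBs (log2 fold change -0.03, 95% interval from -0.22 to 0.16). Hist1h4c was at 165 to 212 CPM against 165 to 192 CPM, and Hist1h4h at 189 to 239 CPM against 166 to 192 CPM. Hist2h4 was the lowest of the class, at 132, 138 and 165 CPM in Control and 115.5, 123 and 121 CPM in Prmt1-null iGBs (adjusted p = 0.112, edgeR). At the other end Hist1h4k had a log2 fold change of 0.00.

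The linker histone genes overlapped between groups. Their sum was 1018, 1092 and 1300 CPM in Control and 934, 1014 and 1109 CPM in Prmt1-null iGBs. Of the 6 genes, 0 were called and 2 were lower at an unadjusted p under 0.05 (edgeR), where 7% of all genes tested were. The median log2 fold change was -0.19, and -0.05 without Control replicate 3. Hist1h1c stood at 333, 355 and 432 CPM against 308, 335 and 340 CPM, Hist1h1d at 263, 289.5 and 325 CPM against 219, 242 and 282.5 CPM, and Hist1h1e at 199 to 281 CPM against 190 to 226 CPM. Hist1h1a was the only H1 gene above 0 (log2 fold change 0.05, 95% interval from -0.11 to 0.22). The testis linker gene Hist1h1t was near its detection limit, at 0.219 to 0.744 CPM in Control and 0.0665 to 0.273 CPM in Prmt1-null iGBs, where 3 counts correspond to 0.0475 to 0.0657 CPM.

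Because all classes moved with the level of a library, the make-up of the histone reads was compared within each library. H2b genes took 20.3%, 19.5% and 19.0% of the histone counts in Control and 17.6%, 18.3% and 17.8% in Prmt1-null iGBs. H4 genes took 22.9%, 23.3% and 23.6% in Control and 25.1%, 24.7% and 24.6% in Prmt1-null iGBs. In both cases the groups did not overlap, with H2b lower and H4 higher in Prmt1-null iGBs, whereas the shares of H1, H2a and H3 overlapped. The number of H2b counts per H4 count was 0.843 ± 0.0396 (SD, n = 3) in Control and 0.722 ± 0.0202 (SD, n = 3) in Prmt1-null iGBs, a difference of -14.4%. It was lower both in the male pair (-18.2%) and in the females (-12.3%). Shares add up to the whole, so a lower share of one class raises the others, and the difference between classes was given no test. H2b counts per H2a count and H3 counts per H4 count were also lower in every Prmt1-null library (1.98 against 2.20 and 1.37 against 1.47, group means).

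**Figure D3:**
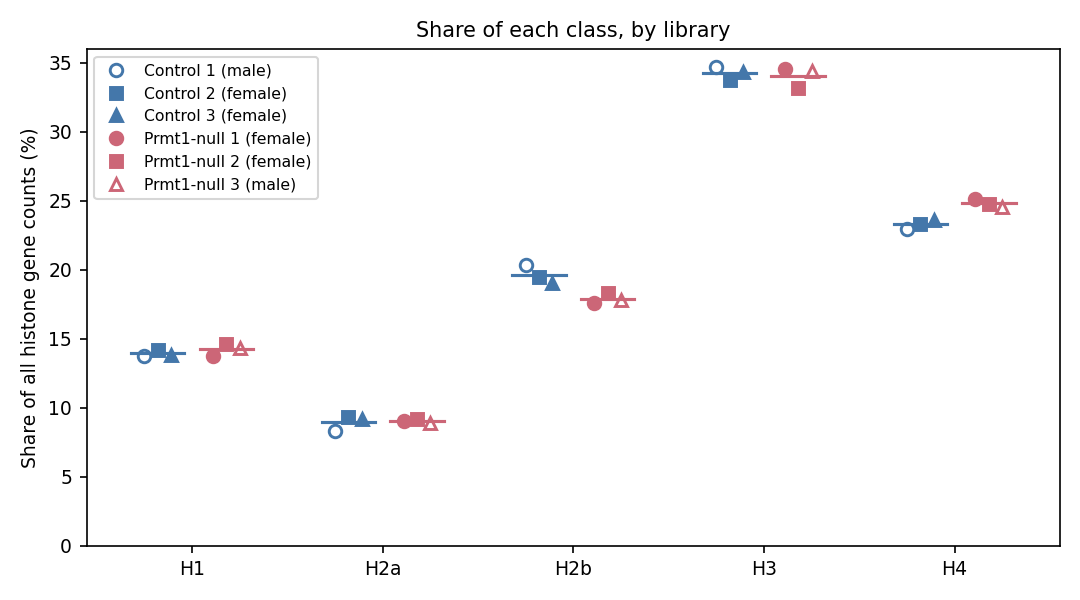
Share of all histone gene counts taken by each class (vertical axis, percent, from 0), 1 symbol per library and a bar at each group mean. For H2b the 3 Control libraries lie at 19.0% to 20.3% and the 3 Prmt1-null libraries at 17.6% to 18.3%, and for H4 the order is the other way round.

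Many H2a and H2b genes stand head to head, with their starts close together and a shared stretch of DNA between them. There were 14 such pairs with starts 172 to 305 bases apart, and both genes were tested in 13. The H2b gene had the lower log2 fold change in 10 of the 13 pairs, with a median difference of -0.11 between H2b and H2a. In the pair of Hist1h2ak and Hist1h2bn the values were -0.12 and -0.34, and in that of Hist1h2ai and Hist1h2bl -0.03 and -0.39. The pair Hist1h2ap and Hist1h2br was nearly level (-0.37 and -0.39). The reverse order was seen in Hist1h2ao and Hist1h2bq, Hist1h2aj and Hist1h2bm, and Hist2h2ac and Hist2h2be. H2a genes shared more sequence with other places than H2b genes did (a median of 60.6% against 29.5% of windows at 2 or more other places), and the part of this in the difference was not tested.

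**Figure D4:**
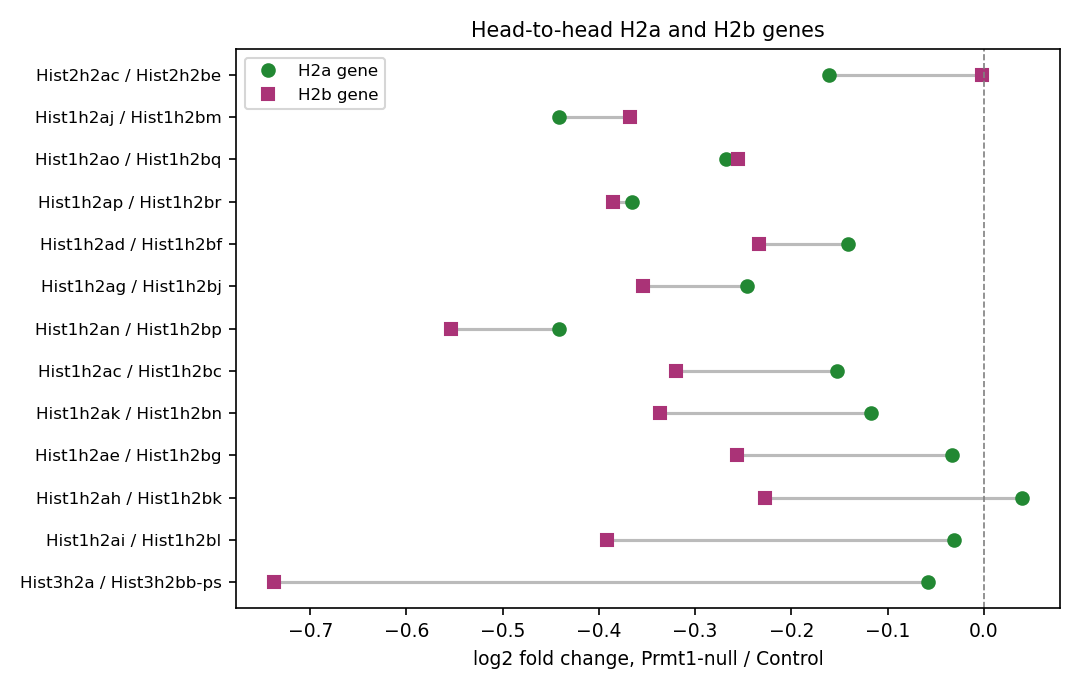
Log2 fold change (Prmt1-null over Control, horizontal axis) of the H2a gene (circle) and the H2b gene (square) of 13 head-to-head pairs, ordered by their difference. The H2b gene lies to the left in 10 of the 13, with the widest gap in Hist3h2a and Hist3h2bb-ps.

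The promoters of the 5 called genes are printed because H2a and H2b genes share them and because H2B promoters are known for an octamer that POU factors bind. Each line holds the 250 bases before the start in RefSeq (GRCm38.p6), 5′ to 3′ on the strand of the gene. Capitals mark the letters of the octamer (ATTTGCAT) and its variant with A (ATTTGAAT), the CCAAT box and the TATA box (TATAAA), at any place and on either strand. A marked stretch need not be a working element, as with the TTTATA of Hist1h2bn, which is TATAAA on the opposite strand in the upstream part of the window.
Hist1h2br, chr13:21833493-21833742, plus strand: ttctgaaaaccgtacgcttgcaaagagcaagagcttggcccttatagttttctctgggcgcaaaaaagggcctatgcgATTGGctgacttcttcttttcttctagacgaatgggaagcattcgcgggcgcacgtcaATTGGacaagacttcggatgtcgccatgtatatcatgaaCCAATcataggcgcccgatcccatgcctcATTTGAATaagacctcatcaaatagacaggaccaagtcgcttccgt
Hist1h2bn, chr13:21753826-21754075, plus strand: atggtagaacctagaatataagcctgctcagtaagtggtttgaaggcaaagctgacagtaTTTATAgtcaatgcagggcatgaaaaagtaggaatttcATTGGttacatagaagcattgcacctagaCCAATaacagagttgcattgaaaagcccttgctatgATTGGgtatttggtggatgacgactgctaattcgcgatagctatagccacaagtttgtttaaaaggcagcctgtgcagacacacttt
Hist1h2bm, chr13:21721794-21722043, plus strand: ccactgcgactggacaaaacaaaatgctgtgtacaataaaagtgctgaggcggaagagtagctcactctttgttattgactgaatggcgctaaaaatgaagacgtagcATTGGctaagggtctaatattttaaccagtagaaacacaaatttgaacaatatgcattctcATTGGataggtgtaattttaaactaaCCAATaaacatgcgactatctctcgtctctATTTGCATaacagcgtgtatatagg
Hist1h2an, chr13:21787249-21787498, minus strand: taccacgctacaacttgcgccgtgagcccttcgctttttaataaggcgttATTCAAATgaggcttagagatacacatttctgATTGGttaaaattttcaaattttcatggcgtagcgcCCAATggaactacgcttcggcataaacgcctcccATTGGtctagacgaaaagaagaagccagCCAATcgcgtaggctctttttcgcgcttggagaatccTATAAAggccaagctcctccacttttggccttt
Hist1h3h, chr13:21717378-21717627, plus strand: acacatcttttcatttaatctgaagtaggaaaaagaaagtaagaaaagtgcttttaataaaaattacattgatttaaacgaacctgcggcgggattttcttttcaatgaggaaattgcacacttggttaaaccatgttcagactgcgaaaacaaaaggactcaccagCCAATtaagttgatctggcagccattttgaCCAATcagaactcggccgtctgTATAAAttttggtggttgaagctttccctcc
Promoters of 60 of the 70 genes were matched in RefSeq, each read over 300 bases that reach 50 bases past the start. Either form of the octamer was found in 12 of 15 H2b and 11 of 17 H2a promoters, which overlap in the head-to-head pairs. It was found in 0 of the 28 H1, H3 and H4 promoters, while 2.91% of all 32851 promoters held it. Of the called H2b genes, Hist1h2bm had the octamer and Hist1h2br its variant with A, and Hist1h2bn had neither form in this window. CCAAT was found in every H1, H2a, H2b and H3 promoter matched and in 3 of 12 H4 promoters, against 37.4% of all promoters. H2b genes with the octamer ATTTGCAT in the window had a median log2 fold change of -0.31 (6 genes) and those without it of -0.34 (9 genes). For H2a genes the medians were -0.06 with it (6 genes) and -0.15 without it (10 genes). In both classes the genes without ATTTGCAT include those with the variant ATTTGAAT alone, such as Hist1h2br and Hist1h2an. The medians therefore do not compare promoters with and without either form.

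By cluster, the medians were -0.22 for Hist1, -0.17 for Hist2 and -0.19 for both Hist3 and Hist4, and the summed levels of all 4 clusters overlapped between groups. Without Control replicate 3 the median was -0.08 for Hist1 and -0.03 for Hist2, and for the 3 Hist3 genes it ran from -0.44 to -0.05 with each library left out. The 5 called genes all lie in Hist1. Within Hist1, the block at chr13:21715763-22043676 holds 24 of the genes and all 5 that fell, with a summed level of 1790, 1910 and 2280 CPM in Control and 1598, 1666 and 1771 CPM in Prmt1-null iGBs, without overlap. The block at chr13:23531050-23934851 holds 31 genes, and its sums overlapped. None of these genes was called in this fit, and 13 were lower at an unadjusted p under 0.05 (edgeR), where 7% of all genes were. This placing depends on the fit. Hist1h2bc and Hist1h3g of the same block were called lower with DESeq2, with GC and length trends removed and with the replicate number as a block. DESeq2 also called Hist2h4 of Hist2. H2b genes had medians of -0.36 in the first and -0.32 in the second block, and H4 genes of -0.09 and -0.08. Hist1h2al, alone further along the chromosome, had a log2 fold change of 0.03.

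In Hist2, the 10 genes summed to 1209, 1245 and 1674 CPM in Control and 1111, 1101 and 1332 CPM in Prmt1-null iGBs, with Control replicate 3 well above the rest. The 3 Hist3 genes had few counts. Hist3h2a stood at 14.2 to 19.5 CPM in Control and 15.6 to 16.5 CPM in Prmt1-null iGBs, and Hist3h2ba at 2.28 to 2.87 against 1.75 to 2.90 CPM. The pseudogene Hist3h2bb-ps, at 5.39, 3.96 and 3.04 CPM against 2.67, 2.29 and 2.46 CPM, had the lowest log2 fold change of the H2b genes (-0.74 ± 0.22, SE, adjusted p = 0.141, edgeR). Hist4h4 was at 33.5, 35.4 and 38.9 CPM in Control and 32.0, 35.3 and 27.2 CPM in Prmt1-null iGBs.

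The mRNAs of some histone genes can also be polyadenylated past the stem-loop, and 23 of the 46 models with a stem-loop run over 100 bases further. The median log2 fold change was -0.18 for these 23 genes, -0.23 for the 23 whose model ends within 100 bases of the stem-loop and -0.26 for the 23 tested genes whose model has no stem-loop. Genes with at most 50% of their windows at other places gave the same median over all classes, -0.20 for 37 tested genes. In this set the class medians were -0.33 for H2b (12 genes), -0.23 for H3, -0.19 for H4, -0.19 for H1 (all 6 genes, so unchanged) and -0.06 for H2a. Per kilobase of the gene model, Hist1h3i was highest of the 70 genes (789 CPM per kilobase, mean of 6 libraries), followed by Hist2h3b (610), Hist1h4d (432) and Hist1h3e (412). This order depends on models of uneven length. The model of Hist1h3i has 411 bases and ends at the stop codon, while that of Hist1h4d has 1138. Of the windows of Hist1h3i, 80.9% occur at 2 or more other places.

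The genes that make and handle these mRNAs were compared in the same fit, in lists written with earlier results of these data known. Of 18 genes for the 3′ end and decay of histone mRNA, 1 was called lower and 0 higher, with a median log2 fold change of -0.04. The 1 called was Zcchc6, a uridylyltransferase, at 58.4, 55.5 and 58.0 CPM in Control and 46.7, 43.6 and 44.3 CPM in Prmt1-null iGBs (log2 fold change -0.35 ± 0.07, SE, adjusted p = 0.0236, edgeR). Slbp itself was at 103, 102 and 96.7 CPM against 90.8, 93.0 and 104 CPM and overlapped. The U7 gene Rnu7 had a mean normalized count of 13.4 and a 95% interval from -2.40 to 0.90.

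The 11 genes of histone gene transcription had a median log2 fold change of -0.10, with 1 called lower and 0 higher, and summed to 1098, 1006 and 1009 CPM in Control and 977, 992 and 964 CPM in Prmt1-null iGBs, without overlap. The cyclin gene Ccne2 fell from 69.3, 65.0 and 55.0 CPM to 43.0, 49.6 and 48.0 CPM (log2 fold change -0.43 ± 0.09, SE, adjusted p = 0.0332, edgeR). Npat, the coactivator that cyclin E and its kinase act on at histone genes, had a log2 fold change of 0.01 with a 95% interval from -0.12 to 0.14. The 16 histone chaperones had a median of -0.03 and 0 called genes (edgeR, 2 lower at an unadjusted p under 0.05, where 7% of all genes were). Nasp, which holds a pool of H3 and H4, was at 41.7 to 42.9 CPM in Control and 40.2 to 42.6 CPM in Prmt1-null iGBs. Chaf1a, of the complex that sets H3 and H4 on new DNA, had a log2 fold change of -0.18 with a 95% interval from -0.42 to 0.07.

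Of the 29 S phase genes, 2 fell, 0 rose and the median was -0.10. At an unadjusted p under 0.05, 9 were lower and 1 higher (edgeR), where 1279 and 1188 of all 18268 genes tested were. Without overlap between groups, 11 were lower and 2 higher, against 9.92% and 9.95% of all genes. Rrm2, the small subunit of ribonucleotide reductase, stood at 139, 134 and 138 CPM against 103, 113 and 117 CPM (adjusted p = 0.033, edgeR). Rfc2, of the complex that loads the PCNA clamp, stood at 77.2, 78.0 and 76.0 CPM against 62.4, 60.7 and 64.7 CPM (adjusted p = 0.0282, edgeR). The calls of Rrm2, Rfc2, Ccne2 and Zcchc6 were all lost when any 1 library other than Control replicate 3 was left out (adjusted p of 0.0537 to 0.174, edgeR). Averaged over genes by their median, the list was lower in every Prmt1-null library than in every Control library (-0.11, -0.06 and -0.01 against 0.07, 0.07 and 0.00 on the log2 scale, each gene centered on its mean of 6 libraries), by a narrow margin, and its summed CPM overlapped between groups. On the same scale the histone gene transcription genes, the chaperones and the replication-independent variants were also lower in every Prmt1-null library (for the variants barely, at -0.02 in the nearest libraries of both groups), whereas the genes for the 3′ end and decay overlapped. Of these 5 lists, only histone gene transcription had summed CPM without overlap. On that scale Control replicate 3 was the lowest Control library for S phase genes and the highest of all 6 for histone genes (0.27). The 10 tested replication-independent histone variants, which are made outside S phase as well, had a median of -0.10, with 0 called (edgeR, 3 lower and 1 higher at an unadjusted p under 0.05).

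The sexes were compared within the limits of 1 male per group. In the females the summed histone level was lower in both Prmt1-null libraries than in both Control libraries, by 19.7% of the mean, while the Prmt1-null male was 4.8% above the Control male. For H2b the male pair went the same way as the females (-8.3% and -25%). A term for the difference between sexes had an unadjusted p under 0.05 for 31 of the 69 histone genes, where 8.09% of all genes did, but an adjusted p under 0.05 for none (edgeR, lowest adjusted p of 0.103). With 1 male per group, sex and the single mouse cannot be told apart.

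**Figure D5:**
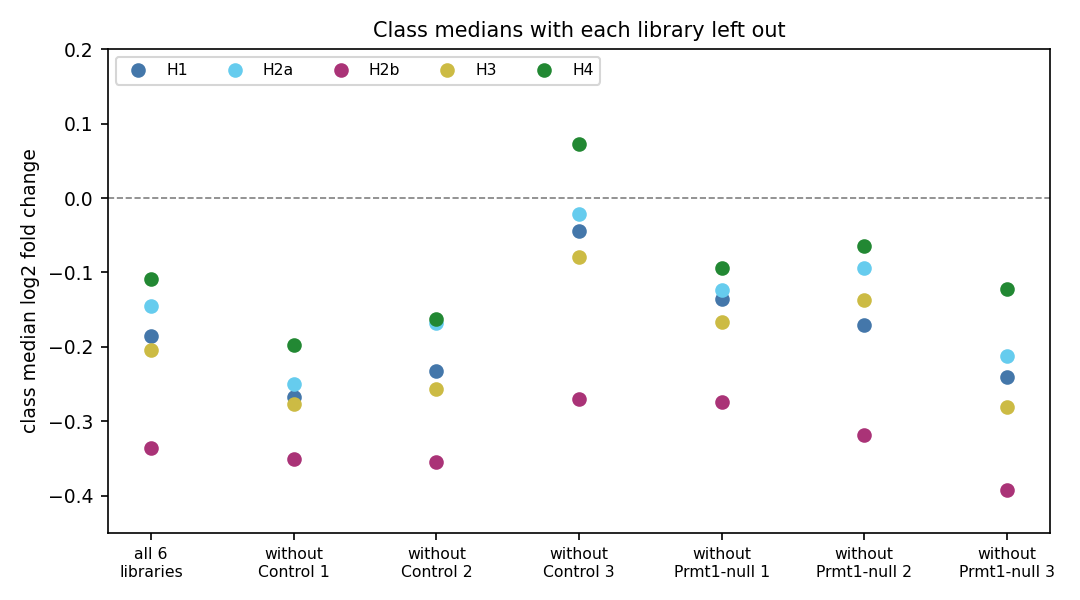
Class median log2 fold change (Prmt1-null over Control, vertical axis) with all 6 libraries and with each library left out in turn (horizontal axis), 1 color per class. H2b stays lowest throughout, from -0.39 to -0.27, and without Control replicate 3 the H4 median is at 0.07.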

How the data were processed

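Total RNA of iGBs from 3 Control and 3 Prmt1-null mice had been sequenced after ribosomal RNA depletion. Before deposit the authors used Trimmomatic 0.32 for trimming, STAR 2.3.0e for alignment to mm10 and featureCounts 1.4.4 for counting on exons, with reads at more than 2 locations dropped, per the paper's methods and the submitters' processing notes. What they deposited is 1 raw count per gene and library, neither normalized nor filtered by the authors. The strand setting of the counting is not given in the sources used here, and 11 of the 70 histone genes overlap another gene. Groups, sexes and replicate numbers came from the labels. The labels and the paper give different IL-4 doses, so none is printed. The histone genes and the companion lists were chosen with earlier results of these data known.

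Members were found by symbol and matched to GENCODE M21 by gene ID (63) or symbol (7). In R 4.3.3, the study's exclusion of chromosome Y (398 genes) was followed, genes were filtered by filterByExpr (minimum count 10), counts were scaled by TMM, and 18268 genes were compared with the quasi-likelihood test of edgeR 4.0.16 with Benjamini-Hochberg adjustment. Adjusted p-values in the text are of this test over all genes tested. A standard error was the absolute log2 fold change divided by the root of the F statistic. Sums and medians over histone genes were given no test. Total counts were 45343250 to 62774232 per library, and a floor of 3 counts covers counting error only, since reads carry no molecular identifiers. No 2 libraries of a group agreed within sampling noise (chi-square per gene of at least 12.0).

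Named were every called histone gene, the 3 with the most reads and the lowest and highest fold change of each class, all of Hist3 and Hist4, the 3 uncalled with the smallest p, called companions with Slbp, Npat, Nasp, Chaf1a and Rnu7, and Prmt1. Other genes were chosen for mention with their values known. Shared sequence was the share of 50-base windows of a gene model found at other annotated exons. Alternatives were DESeq2 1.42.0, limma-voom (limma 3.58.1), other scalings and filters, sex, the replicate number as a block, GC content and length trends (known for 99.3% of the tested genes) and each library left out. Terms for sex by genotype, values by sex and the subset with little shared sequence were added after seeing the data. The fits were tested on simulated data with known changes.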

Additional observations from a re-analysis of the deposited data

Results flagged for a closer look

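The change in summed histone CPM went in opposite directions in the sexes for most sums, with both female Prmt1-null libraries below both female Control libraries and the single Prmt1-null male above the single Control male. In the male pair the sum over all histone genes was 4.8% higher, H1 8.9%, H2a 12.2%, H3 4.1%, H4 12.1%, Hist1 3.9% and Hist2 10.2% higher. The H2a share of the histone counts was slightly lower in females (-1.6%) and 7.1% higher in the male pair, relative to its Control value. The difference of the sums between sexes was not tested, and for single genes it did not pass the adjusted threshold (lowest adjusted p of 0.103, edgeR).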

How the results depend on the processing

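Of the 5 histone genes that fell, Hist1h2br stayed past the threshold except without Prmt1-null replicate 1 or 2 (adjusted p of 0.0918 and 0.077, edgeR). The number of histone genes called lower was 18 with DESeq2, 25 with no filter on low counts and 15 with GC and length trends removed, and ran from 0 to 5 with each library left out. These fits also called more genes of any kind. Over all genes and in either direction, 216 were called in the fit as reported and 746 with DESeq2. With no filter 675 of 25707 were called, and with the trends removed 355. Among the companion genes the number called lower was 4 in the fit as reported, 10 with DESeq2 (which also called 1 higher), 8 with no filter, 8 with the trends removed, 0 in females with a sex interaction, and 0 to 7 with each library left out (7 without Control replicate 3, 0 without any other). With each library left out, the median log2 fold change ran from -0.268 to -0.074 for the 69 tested genes, from -0.267 to -0.045 for H1, from -0.250 to -0.022 for H2a, from -0.393 to -0.270 for H2b, from -0.281 to -0.079 for H3, from -0.197 to 0.073 for H4, from -0.272 to -0.083 for Hist1, from -0.269 to -0.030 for Hist2, from -0.438 to -0.053 for Hist3 and from -0.275 to -0.096 for Hist4. The male pair alone gave log2 ratios of summed CPM of 0.067 for all histone genes, 0.125 for H1, 0.167 for H2a, -0.125 for H2b, 0.058 for H3 and 0.166 for H4. The cause of these shifts was not tested.

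Genes near 0 changed sign. With each library left out, Hist1h2ak ran from -0.278 to 0.053, Hist1h2ah from -0.259 to 0.319, Hist2h2be from -0.073 to 0.074, Hist1h3d from -0.099 to 0.053, Hist1h4d from -0.110 to 0.073, Hist1h4c from -0.112 to 0.079, Hist1h4k from -0.095 to 0.145, Hist3h2a from -0.165 to 0.066 and Npat from -0.024 to 0.071. In females with a sex interaction, Hist1h1a was at -0.043, Hist1h2ah at -0.161, Hist2h2be at 0.045 and Hist1h4k at -0.141, and with no filter Hist2h2be was at 0.003. None of these passed the threshold in any of those fits (edgeR).

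With the replicate block, 5 histone genes were called lower, 3 of them among the 5 of the fit without it, and the H2b median was -0.34. Same-numbered libraries came from different mice, and their deviations from the group means had correlations of -0.38, 0.29 and -0.40 over 13092 genes, so the numbers were not taken to pair the libraries, and no library correlated best with the one of its own number. The males deviated together (0.57). Depth limited Hist1h1t, Hist1h2aa and Rnu7.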
